A study of Mus musculus with 21 samples.

Results

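The genes described here are 10 regulators of cohesin, namely Nipbl, Mau2, Wapal, Pds5a, Pds5b, Esco1, Esco2, Hdac8, Cdca5 and Ctcf. They were chosen by name as the loader, the releasing factors, the acetylation cycle, the protector and the boundary factor of the cohesin ring, and they are 10 of the 30733 genes in the count table. RNA was sequenced in 21 libraries of mouse bone marrow cells that were depleted of lineage-positive cells and sorted, from Stag2 knockout (KO) and Stag2 wild-type (WT) marrow. Stag2 encodes a STAG subunit of cohesin, for which Stag1 encodes the alternative. There were 3 KO and 4 WT libraries of LSK, 4 KO and 3 WT libraries of GMP, and 4 KO and 3 WT libraries of CFU-E. LSK cells hold blood stem cells and multipotent progenitors, GMP give rise to granulocytes and monocytes, and CFU-E are late erythroid progenitors. The labels name no strain, age, Cre driver or knockout allele. They also do not say that replicates come from separate animals, so the p-values rest on library-to-library spread that may be technical.

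Cohesin is a ring of SMC1A, SMC3, RAD21 and a STAG subunit that folds chromatin into loops and holds sister chromatids together. NIPBL with MAU2 loads the ring and drives loop growth, while WAPL (the product of Wapal) with PDS5A or PDS5B opens it and releases it. ESCO1 and ESCO2 acetylate SMC3, HDAC8 removes that mark, sororin (the product of Cdca5) shields acetylated cohesin from WAPL, and CTCF stops moving cohesin at loop anchors. In blood stem and progenitor cells, cohesin genes are known as targets of loss-of-function mutations in human myeloid disease.

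The promoter windows of Wapal, Pds5a, Pds5b and Cdca5 are shown because these genes enter comparisons described further on. Wapal passed the threshold between WT CFU-E and WT GMP, as did 46.9% of all genes. Pds5a and Pds5b form a ratio that was not tested, and Cdca5 had an estimate in GMP that did not pass the threshold. Each window runs from 250 bases before to 50 bases after the gene start, on the coding strand, from RefSeq on build GRCm38.p6, which is not the build of the authors' counting. Wapal (Wapl in RefSeq) lies at chr14:34673678-34673977 on the plus strand, Pds5a at chr5:65698187-65698486 on the minus strand, Pds5b at chr5:150673577-150673876 on the plus strand and Cdca5 at chr19:6084847-6085146 on the plus strand. Capitals mark matches to any of 6 motifs read on both strands: the CCAAT box CCAAT, the cell cycle elements TTTGAA and TTCGAA, the GATA-type elements AGATAA and TGATAA, and the E2F-type element TTCCCGC.
Wapal: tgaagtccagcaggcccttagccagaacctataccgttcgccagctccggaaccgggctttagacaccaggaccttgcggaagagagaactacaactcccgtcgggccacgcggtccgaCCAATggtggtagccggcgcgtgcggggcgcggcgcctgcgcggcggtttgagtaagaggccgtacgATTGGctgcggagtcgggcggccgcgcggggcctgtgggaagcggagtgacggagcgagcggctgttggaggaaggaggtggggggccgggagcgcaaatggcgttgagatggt
Pds5a: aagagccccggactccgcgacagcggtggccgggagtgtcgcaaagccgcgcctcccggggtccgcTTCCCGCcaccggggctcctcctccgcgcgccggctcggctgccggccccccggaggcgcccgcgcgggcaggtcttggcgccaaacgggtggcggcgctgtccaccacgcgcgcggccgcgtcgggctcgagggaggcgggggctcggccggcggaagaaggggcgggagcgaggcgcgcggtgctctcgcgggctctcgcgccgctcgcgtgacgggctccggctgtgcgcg
Pds5b: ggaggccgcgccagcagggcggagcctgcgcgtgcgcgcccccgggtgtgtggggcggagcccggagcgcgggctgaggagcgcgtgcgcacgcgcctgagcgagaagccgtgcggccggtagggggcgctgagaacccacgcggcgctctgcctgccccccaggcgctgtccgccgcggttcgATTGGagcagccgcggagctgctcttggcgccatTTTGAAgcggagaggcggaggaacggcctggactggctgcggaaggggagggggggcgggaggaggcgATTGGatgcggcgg
Cdca5: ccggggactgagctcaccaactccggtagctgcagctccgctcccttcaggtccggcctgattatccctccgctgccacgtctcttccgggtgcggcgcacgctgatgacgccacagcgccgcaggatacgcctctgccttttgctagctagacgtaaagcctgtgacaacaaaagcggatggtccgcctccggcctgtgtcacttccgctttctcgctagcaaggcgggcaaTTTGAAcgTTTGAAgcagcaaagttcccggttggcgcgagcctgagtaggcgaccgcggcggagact

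Of the 10 genes, 7 are in the promoter table, and Nipbl, Esco1 and Esco2 are not. The Wapal window held 2 CCAAT matches, the Pds5b window held 2 CCAAT matches and 1 TTTGAA match, the Pds5a window held 1 TTCCCGC match, and the Cdca5 window held 2 TTTGAA matches. Over all 32851 windows, CCAAT occurred in 37.4%, TTTGAA in 17.9%, TTCGAA in 1.56%, AGATAA in 11.2%, TGATAA in 9.05% and TTCCCGC in 4.60%. The 4 windows were rich in G and C, at 67% for Wapal, 80.3% for Pds5a, 75.7% for Pds5b and 62% for Cdca5, against a median of 52.7% over all windows. These are letter matches only.

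The LSK libraries were read over full transcripts, and the GMP and CFU-E libraries at the 3′ ends of transcripts, so LSK levels were not set against the others. Values are CPM, the counts of a gene scaled to the size of its library, with TMM factors set within a population. Total counts were 28697123 to 32196233 in LSK KO and 22813333 to 32165806 in LSK WT, 1250683 to 3471881 in GMP KO and 3732769 to 4401993 in GMP WT, and 3654667 to 5550165 in CFU-E KO and 3737659 to 5210879 in CFU-E WT. Stag2 was lower in LSK KO (log2 fold change -1.20 ± 0.128 SE, edgeR adjusted p = 0.027) and in CFU-E KO (-1.13 ± 0.205, adjusted p = 0.0143). The call in LSK ended without WT 3, WT 4 or any KO library, with log2 fold changes of -1.27 to -1.14. That in CFU-E ended within the flow cell that holds KO 1, WT 1 and WT 2 (-0.86). Leaving out WT 3 repeats this contrast (-0.85), since the flow cell term then takes up the other KO libraries. Stag2 stood at 41.3 to 75.8 CPM in CFU-E KO and 125 to 160 CPM in CFU-E WT. In GMP it stood at 94.4, 98.7, 80.9 and 150.2 CPM in libraries labelled KO 1 to KO 4, and 200.4, 143.1 and 98.3 CPM in WT. These overlapped, so this gene does not show the knockout there, and GMP KO stands here for the libraries labelled KO. KO 4 was the highest of the KO libraries. The log2 fold change of Stag2 in GMP was -0.47 ± 0.271 (edgeR adjusted p = 0.360), and -0.68 without KO 4 (adjusted p = 0.145). All 8 markers of each sorted population were detected in every group, so detection does not tell the populations apart. LSK markers summed to 2611 to 2971 CPM in LSK KO and 2020.2 to 2887 in LSK WT. GMP markers summed to 17984 to 43706 in GMP KO and 31345 to 52625 in GMP WT, and CFU-E markers to 7764 to 8408 in CFU-E KO and 6396 to 7492 in CFU-E WT. Of these lists of sorted populations, the population's own had the largest sum in GMP and CFU-E. Neutrophil markers summed higher than GMP markers in GMP, to 74418 to 121817 CPM in GMP KO and 155830 to 206490 in GMP WT. In LSK the GMP markers summed higher than the LSK markers, to 5689 to 15948 CPM in LSK KO and 10640.5 to 18227.5 in LSK WT. In bulk RNA of sorted cells, fewer cells of a type and less RNA per cell cannot be told apart.

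All 10 genes were expressed in each population, with raw counts of 458 to 6671 per gene and library in LSK, 24 to 3124 in GMP and 45 to 4735 in CFU-E. In LSK, levels per kilobase of exon put Ctcf first at 40.9 ± 6.99 CPM per kb, then Cdca5 at 39.0 ± 8.85 and Wapal at 27.2 ± 2.99 (SD, n = 7, both genotypes). The lowest was Nipbl at 6.75 ± 0.519 CPM per kb, below Hdac8 at 11.2 ± 0.867 and Pds5b at 13.6 ± 3.26. The exon lengths are those of GENCODE vM21, and the annotation of the counting is not given. Nipbl was among the genes with the most tags in the 3′ libraries described next, and what sets its place in LSK was not tested. Ctcf and Cdca5 did not differ beyond their spread. The middle of the order, Mau2 at 20.7, Esco2 at 19.7, Pds5a at 17.5 and Esco1 at 17.1 CPM per kb, also overlapped from neighbour to neighbour.

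In the 3′ libraries, where tags do not scale with transcript length, Ctcf had the most tags and the other genes spread over a wide range. In CFU-E, Ctcf stood at 820.1 to 1008 CPM over the 7 libraries, followed by Wapal at 231 to 430.4, Nipbl at 221 to 457, Pds5b at 97.1 to 157 and Cdca5 at 62.2 to 78.8. Wapal and Nipbl overlapped there, whereas Ctcf lay above both in every library. Mau2, Hdac8 and Pds5a averaged 37.0, 35.6 and 34.8 CPM and overlapped, and Esco2 and Esco1 were lowest at 24.4 and 18.3. In GMP, Ctcf stood at 536 to 732 CPM, Nipbl at 156 to 485 and Wapal at 125 to 293, and Mau2 and Esco2 were lowest at 18.6 and 16.9 on average.

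**Figure D1:**
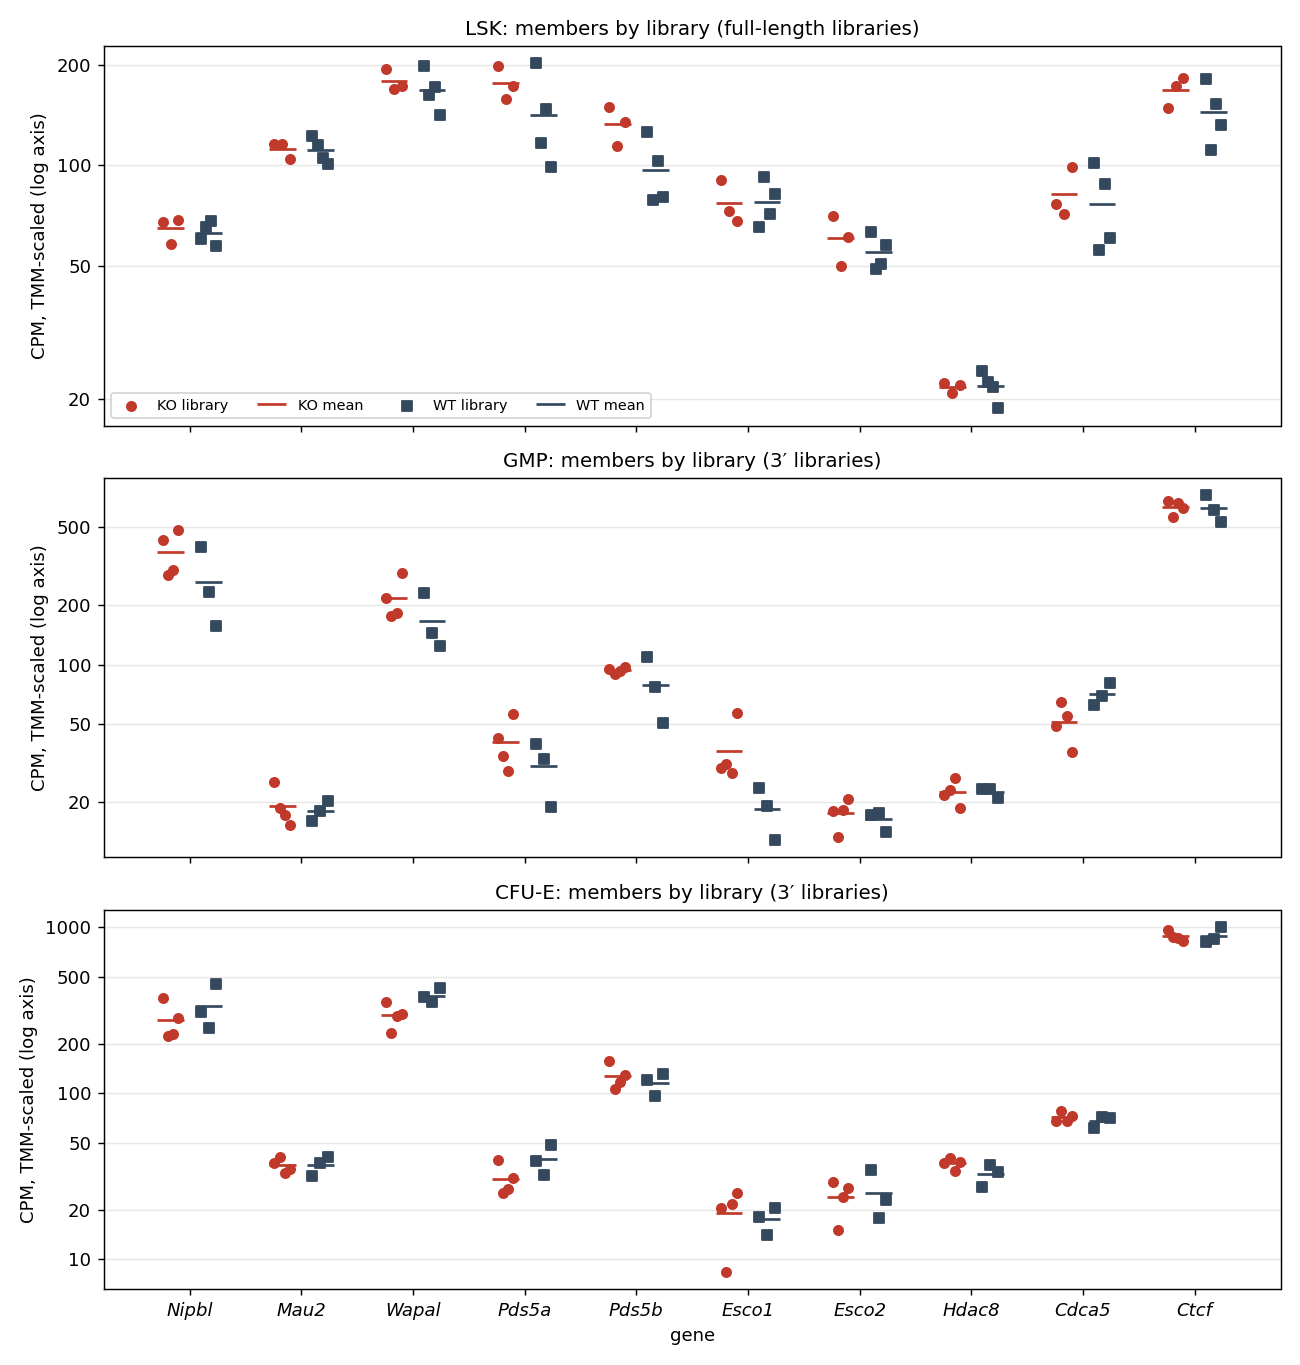
Level of each gene in each library, in CPM on a log axis, for LSK, GMP and CFU-E. Red circles are KO libraries, blue squares WT libraries, and bars group means. GMP KO 4 stands highest for Esco1 at 56.8 CPM, and CFU-E WT 3 highest for Nipbl at 457 CPM.

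In LSK cells, no cohesin regulator passed the threshold between KO and WT, and most estimates were near 0. The loader genes Nipbl and Mau2 had log2 fold changes of 0.05 ± 0.117 and 0.01 ± 0.114 (SE), with 95% intervals of -0.22 to 0.31 and -0.24 to 0.27. By edgeR, 0 of 10 genes passed an adjusted p of 0.05, where 0.0793% of 17664 genes did, and DESeq2 also called 0 of 10. At an unadjusted p under 0.05 there was 1 of 10, Pds5b, where 7.88% of all genes had one. The KO and WT libraries overlapped for all 10 genes, against 7.89% of all genes without overlap. The median log2 fold change of the 10 was 0.09, against 0.00 over all genes tested.

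Pds5b, a releasing factor that binds WAPL, was measured at 150.0, 114 and 134 CPM in LSK KO, against 126, 78.8, 103 and 80.3 CPM in LSK WT. All 3 KO libraries stood above the WT mean, but WT 1 stood above KO 2. The log2 fold change was 0.45 ± 0.187 (95% interval 0.03 to 0.88, edgeR adjusted p = 0.605). Its paralog Pds5a averaged 176.1 ± 20.3 CPM in KO and 141.5 ± 45.4 CPM in WT (log2 fold change 0.32 ± 0.231, adjusted p = 0.854). Ctcf stood at 149, 172 and 183 CPM in KO, against 181, 111, 153 and 133 CPM in WT (0.22 ± 0.172, adjusted p = 0.867). For Pds5a and Ctcf too, all 3 KO libraries lay above the WT mean and the groups overlapped.

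For the other genes in LSK the estimates were small and their intervals excluded a doubling. Wapal had a log2 fold change of 0.08 ± 0.137, and the acetyltransferases Esco1 and Esco2 had -0.01 ± 0.157 and 0.13 ± 0.153. The deacetylase gene Hdac8 stood at 20.8 to 22.3 CPM in KO and 18.7 to 24.2 CPM in WT. Cdca5 was more variable, at 71.5 to 98.9 CPM in KO and 55.7 to 101 CPM in WT (0.10 ± 0.227). WT 1 was the highest library for 5 of the 10 genes and WT 4 the lowest for 5, so the WT group held both extremes. Markers of monocytes summed to 78.3 to 174 CPM in LSK KO and 175 to 380 in LSK WT, without overlap. Those of B cells summed to 69.1 to 130.2 CPM in LSK KO and 108 to 299.6 in LSK WT, and those of neutrophils to 698 to 1704 CPM in LSK KO and 340 to 8375 in LSK WT. T cell markers summed to 29.9 to 31.2 CPM in LSK KO and 32.2 to 44.6 in LSK WT, which overlapped without TMM factors. All 6 markers of each of these lists were detected, and their part in the regulator values was not tested.

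**Figure D2:**
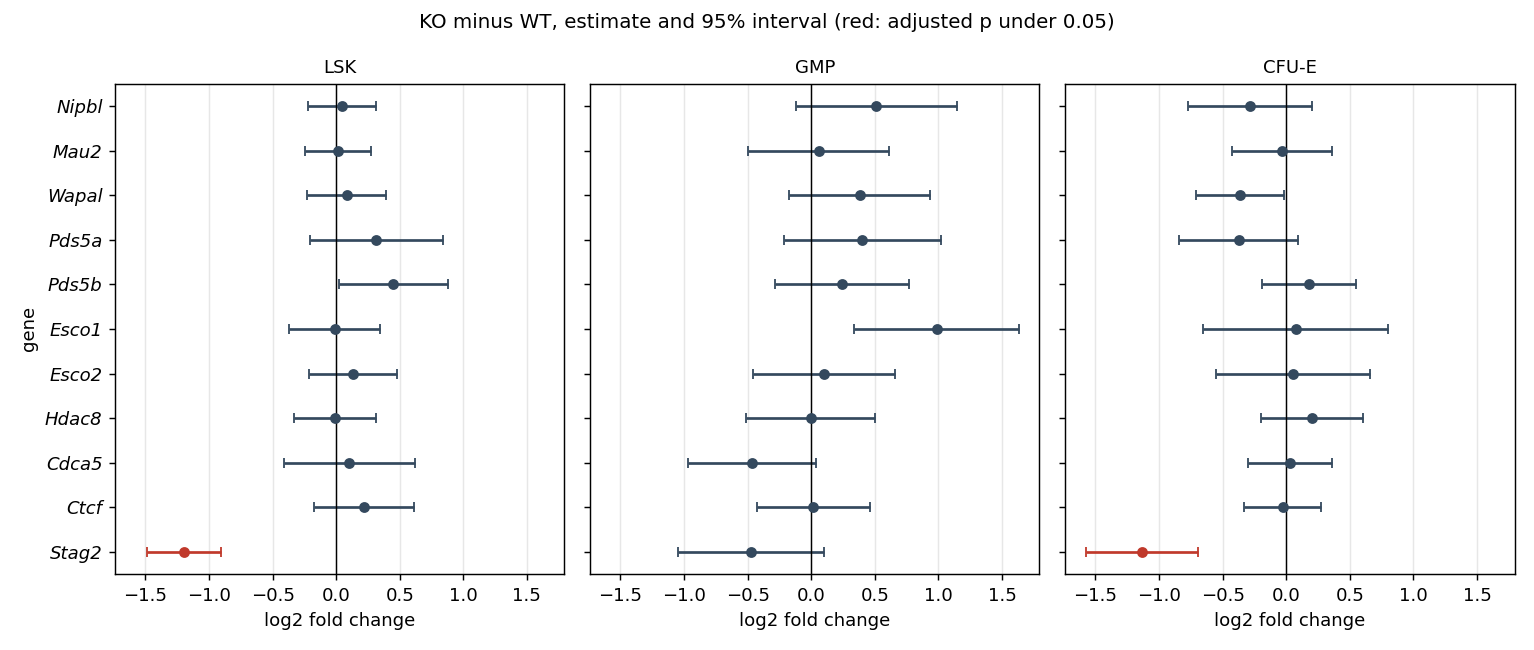
Log2 fold change of KO over WT for each gene and for Stag2 in LSK, GMP and CFU-E, with 95% intervals and red where the adjusted p is under 0.05. Only Stag2 in LSK (-1.20) and in CFU-E (-1.13) is red, and the interval of Esco1 in GMP runs from 0.34 to 1.64.

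In GMP, the acetyltransferase gene Esco1 had the largest log2 fold change of the 10 between libraries labelled KO and WT. It was measured at 29.7, 30.9, 27.9 and 56.8 CPM in GMP KO, on raw counts of 40, 110, 96 and 168, against 23.4, 19.0 and 12.7 CPM in GMP WT, on raw counts of 100, 66 and 48. All 4 KO libraries stood above all 3 WT libraries, and KO 4 stood apart from the other KO libraries. The log2 fold change was 0.99 ± 0.306 (95% interval 0.34 to 1.64, edgeR adjusted p = 0.124), so Esco1 did not pass the threshold over all genes. It was the one gene of 10 without overlap, where 15.8% of all genes had none and 7.37% had none with KO higher. Without KO 4 its log2 fold change was 0.69 (adjusted p = 0.208), and without the filter on low counts it passed (0.96, adjusted p = 0.0286). Esco2, the S-phase acetyltransferase, averaged 17.4 ± 3.08 CPM in KO and 16.2 ± 1.90 CPM in WT (0.10 ± 0.263).

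Over the 10 genes in GMP, edgeR called 0, where 1.45% of 9969 genes were called, and DESeq2 also called 0. At an unadjusted p under 0.05 there was 1, Esco1, where 17.9% of all genes had one. The median log2 fold change of the 10 was 0.17, against 0.02 over all genes tested. Depth went with genotype in GMP, since each KO library was shallower than each WT library, and after thinning every library to the shallowest the log2 fold change of Esco1 was 1.03 (adjusted p = 0.144).

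The loader and release genes in GMP overlapped between the groups. Nipbl stood at 430.3, 286, 303 and 485 CPM in GMP KO, against 399.7, 234 and 156 CPM in GMP WT (log2 fold change 0.51 ± 0.298, adjusted p = 0.367). Wapal stood at 218, 177, 183 and 293 CPM in KO, against 232, 144 and 125 CPM in WT (0.38 ± 0.261, adjusted p = 0.441). For both genes every KO library lay above the WT mean while WT 1 lay inside the KO range. Mau2, the partner of NIPBL, did not share this pattern, at 15.2 to 25.3 CPM in KO and 15.9 to 20.1 CPM in WT (0.06 ± 0.263). Pds5a averaged 40.3 ± 11.7 CPM in KO and 30.3 ± 10.4 CPM in WT (0.40 ± 0.292, adjusted p = 0.467). Pds5b averaged 93.7 ± 3.41 CPM in KO and 79.0 ± 29.6 CPM in WT (0.24 ± 0.249, adjusted p = 0.612).

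Cdca5, which encodes sororin, had the opposite sign. It was measured at 48.3, 64.7, 54.4 and 35.9 CPM in GMP KO, against 61.8, 69.0 and 80.3 CPM in GMP WT. All 4 KO libraries lay below the WT mean, although KO 2 lay above WT 1. The log2 fold change was -0.46 ± 0.236 (95% interval -0.97 to 0.04, edgeR adjusted p = 0.310). Summed S-phase transcripts, among which Cdca5 is not counted, stood at 2952 to 3069 CPM in GMP KO and 3174 to 3581 CPM in GMP WT, without overlap. Without TMM factors they overlapped, at 3110.5 ± 99.7 CPM in GMP KO and 3101 ± 148 CPM in GMP WT. Of the 22 S-phase genes 0 were called by edgeR and 2 had an unadjusted p under 0.05, with a median log2 fold change of -0.22 against 0.02 over all genes tested. Their part in the Cdca5 value was not tested. Hdac8 averaged 22.4 ± 3.26 CPM in KO and 22.5 ± 1.33 CPM in WT, and Ctcf averaged 634.9 ± 50.5 CPM in KO and 627.7 ± 98.5 CPM in WT. The log2 fold change of Ctcf was 0.02 ± 0.209 (95% interval -0.43 to 0.46).

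KO 4 and WT 3 held most of the extreme values in GMP. KO 4 was the highest library for Esco1, Esco2, Nipbl, Pds5a and Wapal and the lowest for Cdca5, Hdac8 and Mau2, and WT 3 was the lowest for Ctcf, Esco1, Nipbl, Pds5a, Pds5b and Wapal and the highest for Cdca5. KO 4 also had the lowest sum of GMP markers, 17984 CPM against 31345 to 52625 in the other 6 GMP libraries. Stag2 was likewise highest in KO 4 among the KO libraries, at 150.2 CPM. LSK markers, all 8 of them detected, summed to 253, 324, 313 and 566 CPM in GMP KO, against 249, 247 and 254 CPM in GMP WT. KO 4 was highest, only KO 1 lay within the WT range, and without TMM factors no KO library did, at 272 to 579.0 CPM in GMP KO and 229.9 to 242 CPM in GMP WT. Neutrophil markers summed to 74418 to 121817 CPM in GMP KO and 155830 to 206490 in GMP WT, without overlap and all 6 of them detected. T cell markers were near 0, at 2.04 to 4.74 CPM in GMP KO and 1.41 to 1.85 CPM in GMP WT, with Cd3e and Cd8a at 0 in both groups. The part of these marker differences in the regulator values was not tested.

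**Figure D3:**
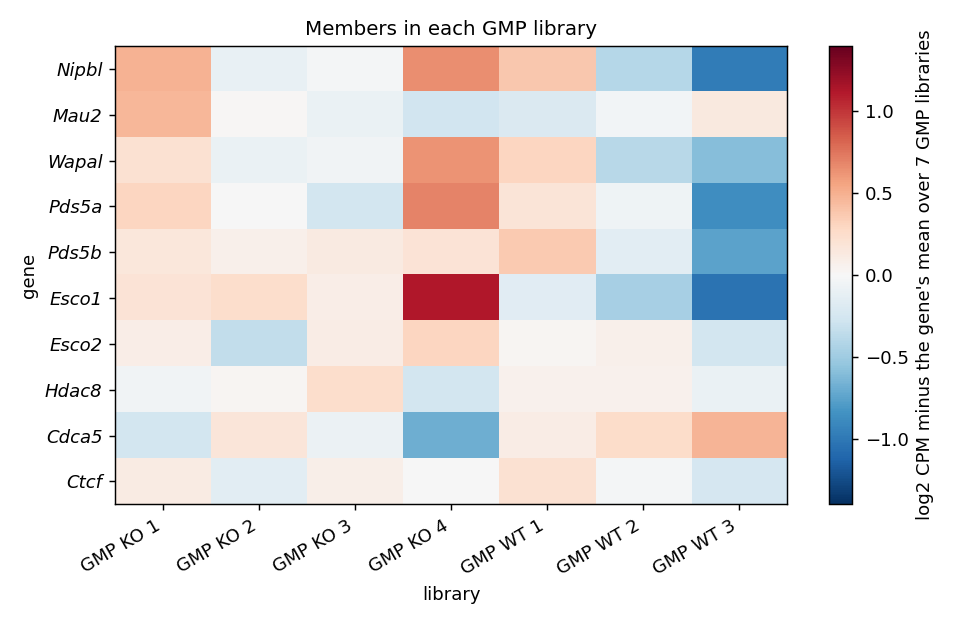
Deviation of each gene in each GMP library from the gene's mean over the 7 libraries, in log2 CPM, with red above and blue below the mean. KO 4 is red and WT 3 blue for Nipbl, Wapal, Pds5a and Esco1, and the colours are turned round for Cdca5.

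In CFU-E, the lowest estimates for KO were those of Pds5a and Wapal, and neither passed the threshold. Wapal was measured at 357, 231, 292 and 299.8 CPM in CFU-E KO, against 379, 354 and 430.4 CPM in CFU-E WT. All 4 KO libraries lay below the WT mean, and KO 1 lay above WT 2. The log2 fold change, adjusted for flow cell, was -0.36 ± 0.161 (95% interval -0.71 to -0.02, edgeR adjusted p = 0.466). Pds5a stood at 39.5, 25.2, 26.6 and 31.1 CPM in KO, against 39.1, 32.5 and 49.2 CPM in WT (-0.37 ± 0.217, adjusted p = 0.631). It too was below the WT mean in all 4 KO libraries, with overlap between the groups. Pds5b did not share this sign, at 157, 106, 118 and 130.1 CPM in KO, against 119.9, 97.1 and 130.1 CPM in WT (0.18 ± 0.171, adjusted p = 0.814). Over 15 alternative settings the log2 fold change of Pds5b ran from -0.15 to 0.54, and its sign changed in 2 of them.

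By edgeR, 0 of 10 genes were called in CFU-E, where 1.06% of 10170 genes were, and DESeq2 also called 0. At an unadjusted p under 0.05 there was 1, Wapal, where 9.82% of all genes had one. All 10 genes overlapped between KO and WT, against 11.8% of all genes without overlap. The median log2 fold change of the 10 was 0.00, the same as over all genes tested.

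The CFU-E libraries lay on 2 flow cells, here A and B, and fits within each gave different values. KO 1, WT 1 and WT 2 were on flow cell A, and KO 2, KO 3, KO 4 and WT 3 on flow cell B. The log2 fold change of Wapal was -0.06 on flow cell A and -0.65 on flow cell B (adjusted p = 0.996 and 0.163). That of Pds5a was 0.13 within A and -0.84 within B (adjusted p = 0.994 and 0.160). Each flow cell holds a group of 1 library, which these fits take to vary like the others. A difference between the flow cells thus cannot be told apart from the spread of a single library. WT 3, the one WT library on flow cell B, was the highest of all 7 for Ctcf, Mau2, Nipbl, Pds5a and Wapal. Without WT 3 the log2 fold change of Wapal was -0.04 and that of Pds5a 0.14. The flow cell term then takes up KO 2, KO 3 and KO 4, so this repeats the contrast within A. With all 7 libraries and no flow cell term, the log2 fold change was -0.40 for Wapal and -0.39 for Pds5a.

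Nipbl changed sign between the flow cells. It was measured at 378, 221, 227 and 283 CPM in CFU-E KO, against 308, 249 and 457 CPM in CFU-E WT (-0.28 ± 0.225, adjusted p = 0.757). Its log2 fold change was 0.43 on flow cell A and -0.91 on flow cell B (adjusted p = 0.827 and 0.061). Its partner gene Mau2 stood at 33.2 to 41.3 CPM in KO and 31.8 to 41.4 CPM in WT. Ctcf, with the most tags of the 10, stood at 825 to 965 CPM in KO and 820.1 to 1008 CPM in WT, with a log2 fold change of -0.03 ± 0.141 (95% interval -0.33 to 0.28).

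The acetylation genes in CFU-E also overlapped between the groups, and the intervals of Esco1 (-0.65 to 0.80) and Esco2 (-0.55 to 0.66) were wide. Esco1 averaged 18.9 ± 7.32 CPM in KO and 17.6 ± 3.31 CPM in WT, and Esco2 averaged 23.9 ± 6.25 CPM in KO and 25.1 ± 8.61 CPM in WT. Hdac8 stood at 34.2 to 40.7 CPM in KO and 27.3 to 37.0 CPM in WT, with all 4 KO libraries above the WT mean (0.20 ± 0.188, adjusted p = 0.805). Cdca5 averaged 72.1 ± 5.15 CPM in KO and 68.6 ± 5.62 CPM in WT (0.03 ± 0.153). Summed S-phase transcripts stood at 5475 ± 233 CPM in CFU-E KO and 6084 ± 155 CPM in CFU-E WT, without overlap, and megakaryocyte markers at 393 to 913 CPM in KO and 117 to 258 CPM in WT, without overlap and all 6 detected. The sums of CFU-E markers given above also did not overlap, although they did without TMM factors, at 7487 to 8592 CPM in KO and 6325 to 7496 CPM in WT. Their part in the regulator values was not tested.

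Whether the KO effect differed between populations was tested directly, and each population's libraries enter 2 of the 3 tests. For CFU-E minus GMP, 0 of 10 genes were called by edgeR, where 0.445% of 11006 genes were, and 0 had an unadjusted p under 0.05, where 13.6% of all genes did. The differences nearest to the threshold were Wapal at -0.66 ± 0.321 (adjusted p = 0.375), Cdca5 at 0.57 ± 0.303 (adjusted p = 0.409) and Pds5a at -0.69 ± 0.380 (adjusted p = 0.421). For LSK minus GMP, 0 of 10 were called and 0 of 16288 genes were, with 1732 (10.6%) at an unadjusted p under 0.05 and 62 by DESeq2. Esco1 was the 1 regulator with an unadjusted p under 0.05 there, at -0.93 ± 0.363 (adjusted p = 0.423). For LSK minus CFU-E, 0 of 10 were called, where 0.0425% of 16474 genes were, and 0 had an unadjusted p under 0.05, where 7.4% of all genes did. DESeq2 called 0 of 10 in each of these 3 tests. In the tests with LSK the populations also differed in library type and depth. LSK minus GMP tested 16288 genes and GMP alone 9969, so many genes passed the filter through LSK. The same holds for LSK minus CFU-E, with 16474 genes against 10170 in CFU-E alone. The shares over all genes there thus include genes with few counts in the 3′ libraries.

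Ratios of paired regulators within a library do not depend on scaling, and are given as a description with no test. Over 4 ratios in 3 populations, KO and WT libraries did not overlap in 2 of 12, and no such share was computed over all pairs of genes, so nothing is read from this count. The ratio of Pds5a to Pds5b counts in CFU-E was 0.252, 0.239, 0.226 and 0.239 in KO, against 0.326, 0.335 and 0.378 in WT. All 4 KO libraries lay below all 3 WT libraries, so the same order on each of the 2 flow cells is no further check. The same ratio overlapped in GMP, at 0.428 ± 0.111 in KO and 0.386 ± 0.0391 in WT, and in LSK, at 1.33 ± 0.0507 in KO and 1.44 ± 0.153 in WT. Exons of Pds5a in the GENCODE annotation overlap 2 genes on the opposite strand over 374 bases, and the strand setting of the counting is not given in the sources used here.

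The second ratio without overlap, that of Esco1 to Esco2 counts in GMP, holds the Esco1 counts already described and stood at 1.67, 2.34, 1.55 and 2.75 in KO, against 1.37, 1.08 and 0.906 in WT. KO 4 and KO 2 were the highest, and every KO library stood above every WT library. This ratio overlapped in CFU-E, at 0.772 ± 0.179 in KO and 0.737 ± 0.195 in WT, and in LSK, at 1.29 ± 0.177 in KO and 1.44 ± 0.353 in WT. The ratio of Nipbl to Wapal, the loader against the releasing factor, overlapped everywhere, at 0.363 ± 0.0292 in LSK KO and 0.377 ± 0.0477 in LSK WT, 1.73 ± 0.164 in GMP KO and 1.53 ± 0.248 in GMP WT, and 0.933 ± 0.117 in CFU-E KO and 0.859 ± 0.184 in CFU-E WT. The ratio of Nipbl to Mau2 overlapped in all 3 populations as well.

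**Figure D4:**
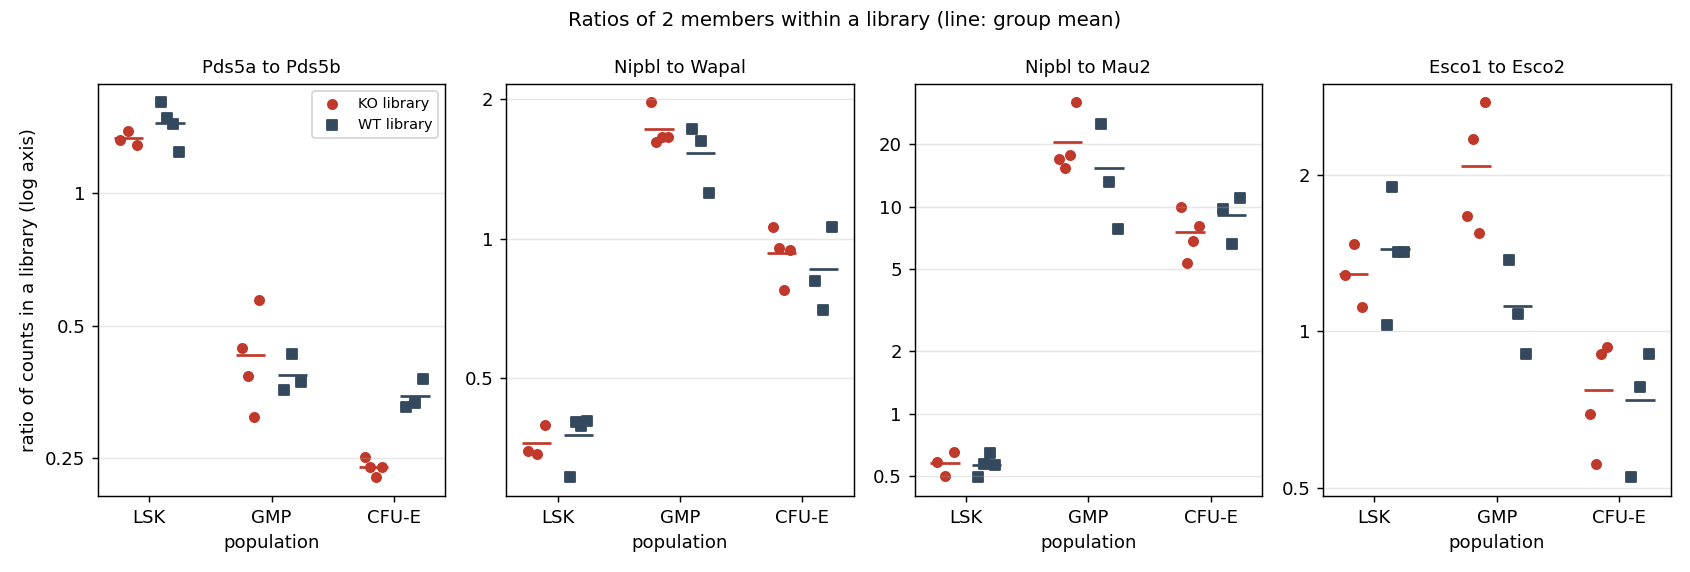
Count ratio of each of 4 pairs of regulators in each library, on log axes, by population. Red circles are KO libraries and blue squares WT libraries. Pds5a to Pds5b in CFU-E (0.226 to 0.252 in KO, 0.326 to 0.378 in WT) and Esco1 to Esco2 in GMP are the sets without overlap.

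Across the 3′ libraries, WT CFU-E were compared with WT GMP on a common scale, which shows how the regulators differ between an erythroid and a myeloid progenitor. Wapal was the 1 gene of 10 past the threshold, and it was higher in CFU-E, where 46.9% of 10329 genes passed in either direction and 21.9% were higher. Wapal was measured at 314, 309.6 and 364 CPM in WT CFU-E, against 259, 159.6 and 135 CPM in WT GMP. Every CFU-E library stood above every GMP library. The log2 fold change, adjusted for flow cell, was 0.75 ± 0.263 (95% interval 0.21 to 1.30, edgeR adjusted p = 0.0210). Among these libraries only CFU-E WT 3 was on flow cell B, so the flow cell term fits it alone. Fold changes and p-values of this comparison thus rest on CFU-E WT 1 and WT 2 against GMP WT. The CPM means are over all 3 libraries of a group. Within flow cell A alone the log2 fold change of Wapal was 0.77 (adjusted p = 0.0191), which is the same contrast and no further check. The call ended without GMP WT 2, GMP WT 3, CFU-E WT 1 or CFU-E WT 2, with the log2 fold change between 0.57 and 0.77 in these cases. The adjusted p was 0.121 without GMP WT 2 and 0.0513 without GMP WT 3. Leaving out CFU-E WT 1 or CFU-E WT 2 left 1 CFU-E library in the contrast, so no p-value is given there.

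Besides Wapal, Mau2 was higher and Cdca5 lower in every CFU-E library without passing the threshold. Mau2 stood at 26.3, 33.1 and 35.0 CPM in WT CFU-E, against 17.8, 19.8 and 21.8 CPM in WT GMP (0.59 ± 0.286, edgeR adjusted p = 0.0954). Cdca5 stood at 51.5, 63.4 and 60.2 CPM in WT CFU-E, against 69.1, 76.5 and 86.8 CPM in WT GMP (-0.43 ± 0.251, adjusted p = 0.169). At an unadjusted p under 0.05 there was 1 of 10, Wapal, where 52.8% of all genes had one. Wapal, Mau2 and Cdca5 were the 3 of 10 genes without overlap, where 59.8% of all genes had none. Esco1 averaged 14.9 ± 2.59 CPM in CFU-E and 20.3 ± 6.25 CPM in GMP (-0.58 ± 0.331, adjusted p = 0.158). Ctcf averaged 759.3 ± 88.2 CPM in CFU-E and 693.3 ± 120 CPM in GMP, with a log2 fold change of 0.04 ± 0.245. The median log2 fold change of the 10 was 0.06, against 0.02 over all genes tested.

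**Figure D5:**
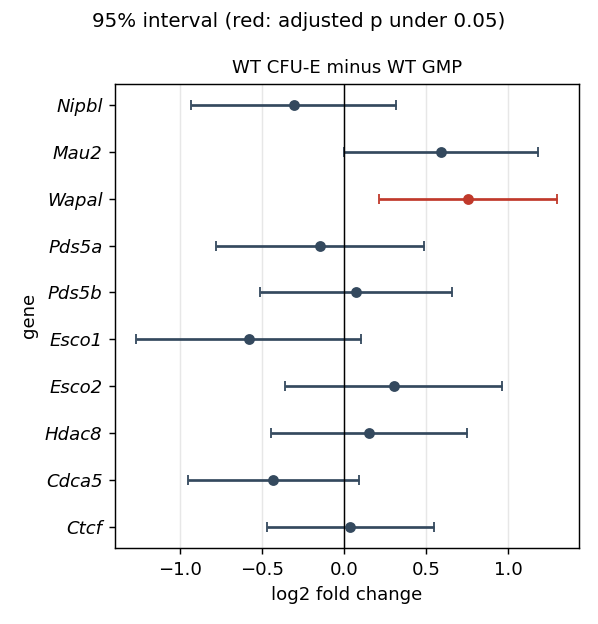
Log2 fold change of WT CFU-E over WT GMP for each gene, with 95% intervals and red where the adjusted p is under 0.05. Wapal (0.75) is the only gene in red, and the interval of Mau2 starts at 0.00.

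Other genes of the same machinery gave a context for these values. In the KO comparisons Stag2 was the only gene called among 9 ring genes, 8 genes of cohesin protection and cleavage, 8 loop partners, 10 condensin and SMC5/6 genes, 22 S-phase genes and 19 G2/M genes, in LSK and in CFU-E. Of the ring genes 6 to 8 were tested per population, of the loop partners 7, and of the other lists all. In WT CFU-E against WT GMP, 46.9% of all genes were called, 21.9% higher and 25% lower, and the counts of these lists are given against those shares. In either direction, the shares called of the lists, between 1 of 10 and 10 of 22, were all below 46.9%. Nothing particular to a list is read from them. Of 7 tested ring genes 2 were higher and 1 lower. Smc3, the ring subunit that ESCO1 and ESCO2 acetylate, averaged 748.6 ± 155 CPM in CFU-E and 383.5 ± 184 CPM in GMP (log2 fold change 0.79 ± 0.295, adjusted p = 0.0309). Rec8, the meiotic form of RAD21, averaged 15.01 ± 2.47 CPM in CFU-E and 0.212 ± 0.368 CPM in GMP, and Stag3, a meiotic STAG, averaged 2.22 ± 1.44 CPM in CFU-E and 6.36 ± 1.70 CPM in GMP (adjusted p = 6.44e-08 and 0.00276).

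Of 8 genes of cohesin protection and cleavage, 2 were higher and 1 lower in WT CFU-E, where 21.9% of all genes were higher and 25% lower. Espl1, which encodes the protease separase that cuts cohesin, averaged 49.9 ± 2.12 CPM in CFU-E and 25.5 ± 6.28 CPM in GMP (adjusted p = 0.00686). Sgol1, the shugoshin that protects mitotic cohesin, averaged 121.4 ± 11.6 CPM in CFU-E and 74.7 ± 20.9 CPM in GMP (adjusted p = 0.0499). Sgol2, which protects centromeric cohesin, averaged 11.9 ± 3.15 CPM in CFU-E and 30.1 ± 13.1 CPM in GMP (adjusted p = 0.00904). Of 10 condensin and SMC5/6 genes, Ncaph was higher, at 29.0 ± 7.23 CPM in CFU-E and 14.9 ± 4.27 CPM in GMP (adjusted p = 0.00956). Of 7 tested loop partners, Ldb1, which bridges enhancers and promoters with GATA1 in erythroid cells, was higher, at 23.9 ± 11.8 CPM in CFU-E and 9.49 ± 3.03 CPM in GMP (adjusted p = 0.000686). Of 22 S-phase genes, 9 were higher and 1 lower in WT CFU-E, where 21.9% of all genes were higher and 25% lower. The share higher thus lay above that of all genes and the share lower below it, which was not tested. Ccne1, which encodes cyclin E1, averaged 191.8 ± 34.3 CPM in CFU-E and 21.6 ± 6.16 CPM in GMP (adjusted p = 3.7e-10). Of 19 G2/M genes, 2 were higher, Ccna2 and Ccnb1. Cdca5, which works in S phase and G2, did not pass the test in either direction.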

How the data were processed

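RNA was measured in 21 libraries of 3 sorted marrow populations, in the groups given by the labels. The deposited values are raw counts per gene, which the authors made with STAR 2.4 and HTSeq 0.6.1 on mm9, with DESeq2 also named, per the submitters' processing notes. The sources used here do not give the annotation or the strand setting. No column was without a sample, and 82 of 30733 genes had no count.

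Comparisons were fitted with edgeR 4.0.16 (R 4.3.3) on all genes passing filterByExpr (minimum count 10, minimum total 15), with TMM scaling and quasi-likelihood F tests; a gene was called at p under 0.05 after Benjamini-Hochberg adjustment over all genes tested. A flow cell term entered wherever CFU-E libraries did. CPM, marker and phase sums included, carry these factors and are means ± SD, log2 fold changes carry standard errors, and intervals are 95%. The test was checked on simulated counts. A simulated 2-fold change was called in 35.4% of altered genes for LSK, 36.1% for GMP and 56.1% for CFU-E. For a 1.5-fold change these shares were 3.03%, 4.62% and 7.46%. Between WT CFU-E and WT GMP they were 40.9% for a 2-fold and 3.13% for a 1.5-fold change. Most changes of 1.5-fold thus went uncalled. Exon lengths come from GENCODE vM21 and promoters from RefSeq.

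The 10 genes, the gene lists and the motifs were chosen with earlier results of these data known. The 10 genes and Stag2 are always named, and of each other list at most 3 genes past the threshold, by smallest p. Alternatives were other size factors, DESeq2 1.42.0, other filters, a replicate block, no flow cell term, single flow cells, thinned GMP counts and each library left out; list sums without TMM factors were added after the data were seen. Replicate libraries all differed by more than sampling noise (lowest chi-square per degree of freedom 4.03, over genes with 20 or more summed counts).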

Additional observations from a re-analysis of the deposited data

Results flagged for a closer look

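Of 42 groups of 4 values examined, 30 of them CPM and the others count ratios, 4 held a library far from the rest of its group, and chance flags about 1 in 20 such groups. Esco1 in GMP KO 4 stood at 56.8 CPM, far above the other 3 KO libraries. The ratio of Nipbl to Mau2 in GMP KO 4, 31.8, was far above the other KO libraries of GMP. The ratio of Nipbl to Wapal in GMP KO 1, 1.97, was far above the other 3. The ratio of Nipbl to Wapal in LSK WT 1, 0.305, was far below the other 3 LSK WT libraries.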

How the results depend on the processing

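No alternative called any of the 10 genes in the KO comparisons or interactions except 1 in GMP without the filter on low counts (Esco1, adjusted p = 0.0286). The counts of all genes called moved more. In LSK, 342 were called by DESeq2, 38 without the filter and 0 with the replicate block. In GMP, 300 were called by DESeq2, 601 without the filter, 92 with the stricter filter, 325 with the replicate block and 52 after thinning. In CFU-E, 182 were called by DESeq2, 333 without the filter, 31 with the replicate block and 234 without the flow cell term. For CFU-E minus GMP the counts were 134, 254 and 81 by DESeq2, without the filter and without the flow cell term. For LSK minus GMP they were 62 and 12 by DESeq2 and without the filter, and for LSK minus CFU-E 90, 32, 0 and 18 by DESeq2, without the filter, with the replicate block and without the flow cell term. With single libraries left out, counts ran over 0 to 123 in LSK, 38 to 211 in GMP, 22 to 143 in CFU-E, 2 to 72 for CFU-E minus GMP, 0 to 8 for LSK minus GMP and 1 to 24 for LSK minus CFU-E. In WT CFU-E against WT GMP, 3 of the 10 genes were called with the replicate block (Wapal, Nipbl and Esco1), 2 without the flow cell term (Wapal and Mau2), and 0 to 2 with single libraries left out, 2 being Wapal and Cdca5 without GMP WT 1. Nipbl in CFU-E reversed to 0.43 within flow cell A, and over single libraries left out it ran over -0.92 to 0.44. Those ends are the fits without KO 1 and without WT 3, which repeat the contrasts within flow cells B and A. The cause of these shifts was not tested. Signs changed in 103 of 759 leave-one-out and 48 of 473 other refits of the 10 genes and Stag2, none of them called. The call of Stag2 ended with the replicate block in LSK and CFU-E (adjusted p = 0.220 and 0.0804). In CFU-E it also ended within flow cell A, a contrast that the fit without WT 3 repeats. The labels do not say that replicate numbers pair libraries. Same-numbered KO and WT libraries had correlations of their deviations of 0.108, 0.0723 and 0.00324 in LSK, -0.157, 0.164 and 0.240 in GMP, and 0.182, 0.254 and -0.183 in CFU-E. Differently numbered libraries ran over -0.195 to 0.169 in LSK, -0.333 to 0.449 in GMP and -0.400 to 0.261 in CFU-E. Between WT CFU-E and WT GMP, same-numbered libraries had -0.108, -0.0692 and -0.159, and differently numbered ones -0.166 to 0.245. All same-numbered values lay within these ranges, and the numbers were not taken as pairs. Depth limits the rare genes most, with as few as 24 counts in a GMP library.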
